A study of Ovis aries with 17 samples.

Results

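TCF4, also called E2-2, is the gene described here across 6 subsets of sheep mononuclear phagocytes and B cells. Its probe was chosen by gene name: of the 15060 probes of the Agilent sheep array, 1 (A_70_P038236) carries the name TCF4, and none was reached through an accession. That probe is printed in 5 spots on each of the 17 arrays.

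The study sorted cell subset candidates from sheep and used TCF4 as a control gene for plasmacytoid dendritic cells (pDC). The arrays hold 3 pDC, 3 cDC2 and 1 cDC1 from blood, 4 B lymphocyte (B) and 3 macrophage (MP) from spleen, and 3 MoDC grown in vitro. The pDC were low density, FSC high cells negative for the B cell marker, CD11b, TCR1, CD8 and CD11c, and positive for CD45RB. The cDC1 (XCR1+ DC in the labels) and cDC2 (XCR1- DC) were CD11c+ and CD45RB- cells of several sheep, split by CADM1 and CD172A. MP were sorted on CD14, and MoDC came from 3 independent cultures with GM-CSF, a growth factor that drives myeloid cells. The labels name no genotype and no treatment of the animals for any subset. Where a sort gave too little RNA, that of distinct sheep was combined, so an array can stand for more than 1 animal. Tissue and subset cannot be told apart between pDC or cDC2 from blood and B or MP from spleen, and culture and subset cannot be told apart in any pair with MoDC.

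TCF4 is an E protein, a basic helix-loop-helix transcription factor that binds E-box sequences as a dimer. Id proteins, among them ID2, lack the DNA-binding region and hold E proteins away from DNA. In human and mouse, TCF4 is required for the development and maintenance of pDC, the main producers of type I interferon, and E proteins also act in B cell development. ID2 is required for cDC1 development in the mouse. TCF4 is a different gene from TCF7L2, which in older literature shares its short name.

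A level is the log2 of the background-corrected, Cy3-labelled signal minus the log2 of the 75th percentile of that array, so 0 is the 75th percentile and 1 unit is 2-fold. Levels of different probes cannot be compared. A spot counts as above background where the scanner software calls it well above background. The 4 slides matter to all comparisons: slides 1, 2 and 3 each held 1 array of B, pDC, MP and MoDC with the same replicate number, and slide 4 held B replicate 4 and all cDC arrays. Slide 4 was read with version 10.10.1.1 of the scanner software and the others with version 10.7.3.1, so each pair of pDC, MP or MoDC with cDC2 or cDC1 also crosses slides and software versions. The 75th percentile lay between 194 and 688 signal units, and 61.1 to 80.2% of the spots of an array were well above background. As a check of the labels, CR2, the complement receptor of B cells, lay between 4.20 and 4.25 on the B arrays. CD14, a co-receptor for lipopolysaccharide, had its highest means in MP and MoDC, with a mean of 6.12 in MP. XCR1, the chemokine receptor that marks cDC1, was 2.61 on the cDC1 array and at most -1.58 on the others.

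TCF4 was high in pDC, B and cDC2, lower in MP, and lowest on the cDC1 and MoDC arrays. In pDC the levels were 1.07, 0.71 and 1.78 (mean 1.19 ± 0.54, SD, n = 3). In B they were 1.09, 0.75, 0.55 and 1.00 (mean 0.85 ± 0.25, SD, n = 4). In cDC2 they were 0.79, 0.53 and 0.83 (mean 0.72 ± 0.16, SD, n = 3). These 10 arrays, from 0.53 to 1.78, overlapped across the 3 subsets.

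The MP levels were -0.56, -1.02 and -0.67 (mean -0.75 ± 0.24, SD, n = 3). The single cDC1 array was at -2.41. The MoDC levels were -2.59, -2.15 and -6.27 (mean -3.67 ± 2.27, SD, n = 3). MoDC replicate 3 was not well above background in any of its 5 spots, so its level is only a bound. TCF4 was well above background on the other 16 arrays. The 7 arrays of MP, MoDC and cDC1 reached at most -0.56, and all lay below the 10 arrays of the other subsets. Of all genes, 1.98% separated these 2 sets of arrays in either direction, but the sets were drawn after the TCF4 levels were seen.

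**Figure D1:**
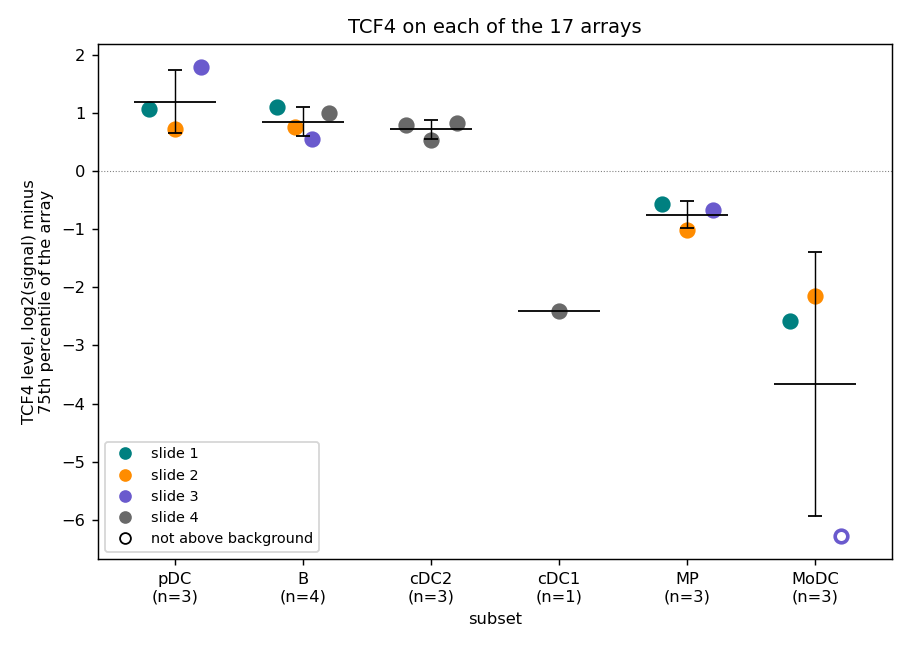
TCF4 level (vertical axis, log2 signal minus the 75th percentile of the array) by subset, 1 point per array and coloured by slide; lines are means and bars SD. The pDC, B and cDC2 points lie from 0.53 to 1.78, the MP points from -1.02 to -0.56, cDC1 at -2.41, and the open point is MoDC replicate 3, not above background.

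The spots of an array agreed closely on slides 2 to 4. The coefficient of variation over the spots was 2.24 to 11.0% there, apart from the 37.9% of MoDC replicate 3, and 9.91 to 18.9% on slide 1. On pDC replicate 1, 1 of the 5 spots was called an outlier by the scanner software and left out. Its signal was 8102, where the other 4 spots lay between 546 and 683.

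The order of mean levels was pDC, B, cDC2, MP, cDC1 and MoDC. The last 2 places rest on MoDC replicate 3, without which the MoDC mean was -2.37, just above the cDC1 array. The cDC1 array lay 1.66 below the MP mean. It was also below MP with other scalings, except with the normexp background correction, which adds 50 signal units before the log is taken and gave cDC1 minus MP as 0.39. On the cDC1 array 7 spots had a local background over 10 times the median of the array, and with normexp the median of its probes lay 0.04 above their 5th percentile. Without these spots that distance was 0.68, and cDC1 minus MP was -0.79. In a limma fit across all 11311 genes tested, a pair was called where its p, adjusted by Benjamini-Hochberg, was under 0.05 and its size at least 2-fold. The first 3 neighbours did not differ beyond their spread. pDC was higher than B by 0.34 ± 0.70 (SE; limma adjusted p = 0.865), with a 95% interval from -1.16 to 1.84. Of all genes, 9.22% were called between pDC and B. pDC was higher than cDC2 by 0.47 ± 0.75 (SE; limma adjusted p = 0.707), where 20.2% of all genes were called. B was higher than cDC2 by 0.13 ± 0.70 (SE; limma adjusted p = 0.912), where 23.1% were called. The intervals of these pairs run from below 0 to above a 2-fold difference, so equal levels are not shown. Without MoDC replicate 3, which widens the spread shared by all subsets, they were narrower, from -0.22 to 0.90 for pDC minus B, from -0.13 to 1.07 for pDC minus cDC2 and from -0.43 to 0.70 for B minus cDC2.

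Against MoDC, TCF4 was called in each of the 4 other replicated subsets. It was 4.86 ± 0.75 (SE) higher in pDC, or 29.0-fold (limma adjusted p = 0.000139), and 33.0% of all genes were called in this pair. It was 4.52 ± 0.70 (SE) higher in B (limma adjusted p = 0.000126; 36.1% called). It was 4.39 ± 0.75 (SE) higher in cDC2 (limma adjusted p = 0.000509; 33.4% called). It was 2.92 ± 0.75 (SE) higher in MP (limma adjusted p = 0.00982; 25.9% called). In these 4 pairs, all arrays of the one subset lay above all of the MoDC arrays for TCF4. Such a separation, in either direction, was found for 41.9% of genes in pDC, 38.0% in B, 50.1% in cDC2 and 36.7% in MP. The measured folds rest partly on MoDC replicate 3. Without it the difference was 3.55 for pDC (11.7-fold), 3.21 for B, 3.08 for cDC2 and 1.62 for MP (3.06-fold), and all 4 stayed called. With normexp the differences were 3.28, 2.94, 2.81 and 1.61 in the same order, and with the authors' own table of values 3.44, 3.08, 2.95 and 1.59, and all stayed called. With slide as a block, the cDC2 difference was 4.18 and its call was lost (limma adjusted p = 0.0794), since no slide held both subsets.

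Against MP, every pDC, B and cDC2 array was higher, but none of these differences was called in the main fit. With all arrays kept, all 3 were called with normexp and with the authors' table. The pDC difference was 1.94 ± 0.75 (SE), or 3.83-fold (limma adjusted p = 0.0693). All arrays of one subset lay above all of the other for 46.3% of genes between pDC and MP, for 39.4% between B and MP and for 48.7% between cDC2 and MP. Between pDC and MP, 25.9% of all genes were called. The B difference was 1.60 ± 0.70 (SE; limma adjusted p = 0.111; 24.3% of genes called). The cDC2 difference was 1.47 ± 0.75 (SE; limma adjusted p = 0.223; 11.2% called). MoDC replicate 3 enters the spread shared by all subsets. Without it all 3 pairs were called: the differences were the same and their SE fell to 0.28, 0.26 and 0.28, with limma adjusted p of 0.000126 for pDC, 0.000356 for B and 0.00324 for cDC2.

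**Figure D2:**
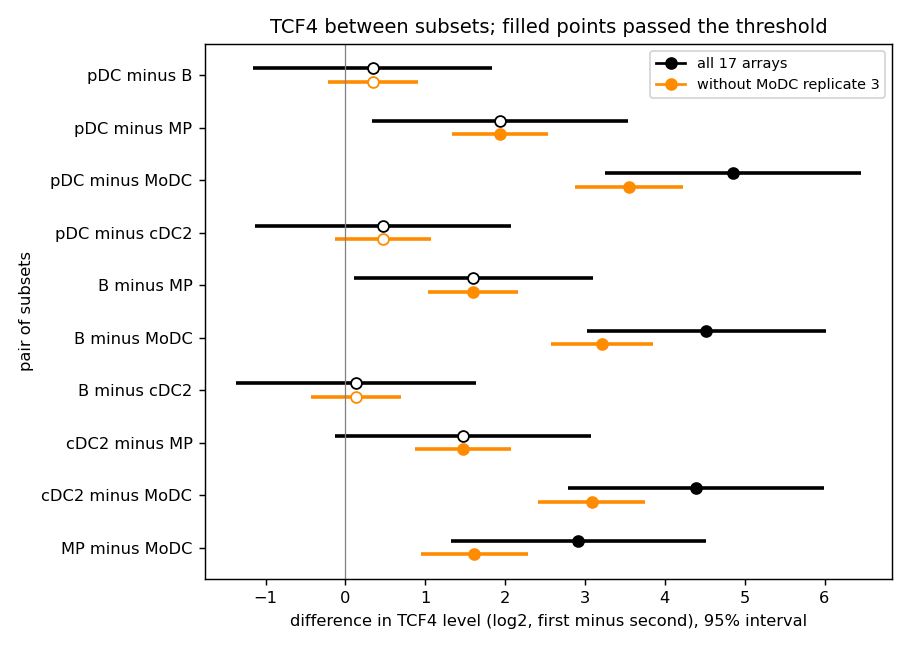
Difference in TCF4 level (log2, first subset minus second) with its 95% interval for the 10 pairs of replicated subsets, from all 17 arrays (black) and without MoDC replicate 3 (orange); filled points were called. The pairs of pDC, B and cDC2 with MP have filled points only without that array, while the 3 pairs among pDC, B and cDC2 have unfilled points under both.

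Within slides, pDC and B were close on 2 of 3 slides. pDC minus B was -0.02 on slide 1, -0.04 on slide 2 and 1.23 on slide 3. The mean difference between them thus came from pDC replicate 3, and without that array it was 0.04. pDC minus MP was 1.63, 1.73 and 2.45 on the 3 slides, and B minus MP was 1.65, 1.77 and 1.22. MP minus MoDC was 2.02 on slide 1 and 1.13 on slide 2. On slide 3 the MoDC array was not above background. Against the dimmest spot of that array called well above background, TCF4 was 167-fold higher in pDC, 70.8-fold in B and 30.4-fold in MP. These folds hold for the processed signal only. With normexp the slide 3 levels lay closer, at 1.67 in pDC, 0.52 in B, -0.56 in MP and -3.04 in MoDC. On slide 4, B replicate 4 was 0.29 above the mean of the 3 cDC2 arrays and 3.42 above the cDC1 array.

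The paper reported, by quantitative PCR, far higher TCF4 in sheep pDC than in the other cell types it examined. For this control gene, the 3 pDC arrays were compared with the other 14 arrays together. The 14 pool unlike subsets, so this comparison does not test whether TCF4 is highest in pDC. The pDC mean of 1.19 was 1.91 above the mean of -0.72 of the others (exact two-sided permutation test, p = 0.121; the smallest p it allows is 0.00147). With labels permuted within slides 1 to 3 the difference was 2.40 (exact permutation p = 0.188, smallest 0.0156). The lowest pDC array, at 0.71, was below B replicates 1, 2 and 4 and below cDC2 replicates 1 and 3.

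Between the blood cDC subsets, TCF4 was far lower on the cDC1 array than on any cDC2 array. The cDC1 level was 3.13 below the cDC2 mean, and cDC2 was 8.76-fold higher. All 4 arrays were on slide 4 and above background. With 1 cDC1 array the difference has no replicate check. Its size depended on the background correction. With normexp, cDC1 minus cDC2 was -1.99 without the 7 spots of high local background, and -0.81 with them.

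ID2, the Id protein on the array, was low where TCF4 was high in pDC and B, and high in cDC1, MP and MoDC, but cDC2 was high for both. Of the 7 E and Id proteins listed, TCF4 and ID2 are on the array by name, and TCF3, TCF12, ID1, ID3 and ID4 were not analysed here. ID2 lay at 0.57, 0.94 and 0.64 in pDC and at 1.09, 0.79, 1.06 and 0.27 in B. It lay at 3.60, 3.78 and 3.39 in cDC2, and at 5.44 on the cDC1 array. In MP it was 4.26, 4.53 and 3.79, and in MoDC 4.40, 4.81 and 5.33. The 7 pDC and B arrays reached at most 1.09, and the other 10 arrays began at 3.39, with no overlap. Of all genes, 6.58% separated these 2 sets of arrays in either direction, and the sets were drawn after the ID2 levels were seen.

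ID2 fell by 2.87 ± 0.32 (SE) from cDC2 to pDC, or 7.32-fold (limma adjusted p = 2.59e-05). It was 3.48 ± 0.32 (SE) lower in pDC than in MP (limma adjusted p = 2.07e-06) and 4.13 ± 0.32 (SE) lower than in MoDC (limma adjusted p = 1.7e-07). Between pDC and B the ID2 difference was -0.09 ± 0.30 (SE; limma adjusted p = 0.925). Between cDC2 and MP, ID2 differed by -0.61 ± 0.32 (SE; limma adjusted p = 0.236). On slide 4, ID2 was 3.32 lower on the B array than the mean of the 3 cDC2 arrays, and 1.85 lower in cDC2 than on the cDC1 array. The correlation of ID2 with TCF4 over the 17 arrays, which share subsets and slides, was r = -0.76.

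**Figure D3:**
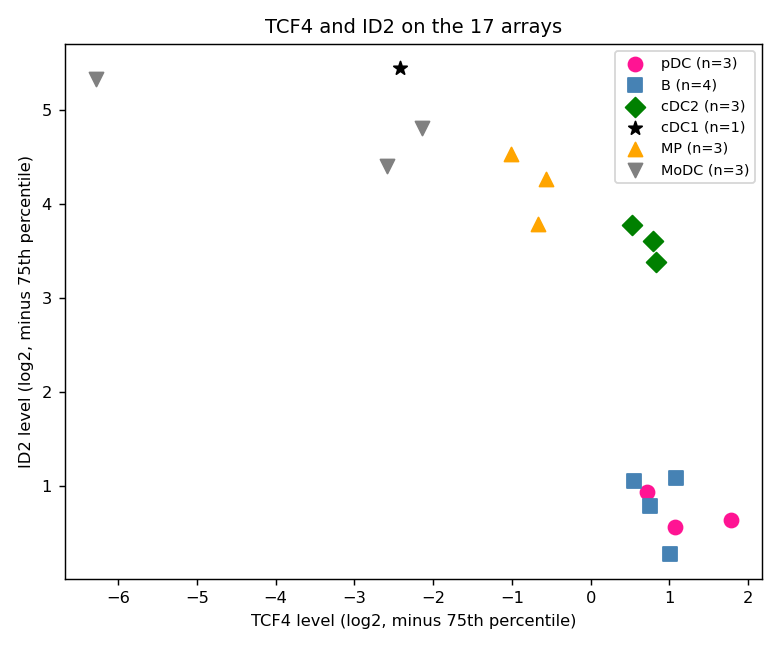
TCF4 level (horizontal axis) against ID2 level (vertical axis), both log2 signal minus the 75th percentile of the array, 1 symbol per array and subset. The pDC and B arrays lie at high TCF4 with ID2 from 0.27 to 1.09, cDC2 at high TCF4 with ID2 from 3.39 to 3.78, and MP, MoDC and cDC1 at lower TCF4 with ID2 from 3.79 to 5.44.

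Of the 30 listed pDC regulators and receptors, 3 are on the array by name: IRF8, FLT3 and TLR9. Members called higher in pDC numbered 2 of 3 against B (4.41% of all genes were called in that direction), 1 of 3 against MP (13.1%), 3 of 3 against MoDC (18.3%) and 0 of 3 against cDC2 (9.34%). 1 of 3, FLT3, was called lower in pDC than in cDC2 (10.9%). Their median difference was 1.92 against B (all genes -0.05) and 0.56 against cDC2 (-0.06). TLR9 passed the filter only through the single cDC1 array, and was not above background in MP and MoDC. With TLR9 there at the lowest signal that was, the median was 0.38 against MP (all genes 0.06) and 1.66 against MoDC (0.27), in both cases the value of FLT3.

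IRF8, a transcription factor of the DC lineage, was highest on the cDC1 array. The tested probe was 4.42, 4.50 and 5.62 in pDC, 2.54, 3.16, 3.38 and 2.63 in B, and 4.44, 4.10 and 4.33 in cDC2. It was 6.44 in cDC1, 2.33, 2.45 and 2.72 in MP, and 1.17, 1.24 and 2.59 in MoDC. IRF8 thus separated pDC from B, where TCF4 did not, by 1.92 ± 0.39 (SE; limma adjusted p = 0.00542). pDC minus cDC2 was 0.56 ± 0.41 (SE; limma adjusted p = 0.375). The second IRF8 probe, not tested, also had higher means in pDC (1.75) than in B (-0.48). For IRF8, pDC replicate 3 was the highest pDC array on both probes, as for TCF4.

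FLT3, the receptor whose ligand drives DC development, was -1.06, -1.24 and -0.16 in pDC and between -5.69 and -4.00 in B, 3.89 ± 0.42 (SE) higher in pDC (limma adjusted p = 5.28e-05). With normexp this FLT3 difference was 1.95. It was higher still in cDC2 (mean 1.35) and cDC1 (2.69). TLR9, the endosomal receptor for unmethylated CpG DNA, was dim. It was well above background on 2 of 3 pDC, 2 of 4 B and 2 of 3 cDC2 arrays, on the cDC1 array, and on no MP or MoDC array. Its pDC levels were -3.88, -5.67 and -3.94. TLR9 was called higher in pDC than in MoDC (limma adjusted p = 0.00724), but pDC replicate 2 and all MoDC arrays were at background, so its size is not given. TLR9 was not called against B, MP or cDC2. TLR9 was lowest on pDC replicate 2, as was TCF4.

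The human pDC fingerprint of the study, 252 genes, holds TCF4, TLR9 and PTGDS among the genes named on the array. PTGDS, a prostaglandin D synthase, was called in no pair of subsets with pDC, with a pDC mean of -5.58 and a B mean of -4.41. The mouse pDC fingerprint, 138 genes, holds TCF4, CCR9, KLK1, ATP1B1 and RHOBTB2 there. Of the 4 besides TCF4, 2 were called higher in pDC than in B (4.41% of all genes), 2 than in MP (13.1%), 2 than in cDC2 (9.34%, CCR9 and KLK1 each time) and 1 than in MoDC (18.3%, CCR9). In the opposite direction, 1 was called lower in pDC than in B (4.81%, RHOBTB2), 1 than in MoDC (14.6%, ATP1B1), 1 than in cDC2 (10.9%, ATP1B1) and 0 than in MP (12.9%). CCR9 is among those called higher in each pair, but it passed the filter only through pDC, where it is high.

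CCR9, a chemokine receptor of gut-homing cells and pDC, had levels of -1.03, -2.46 and -0.30 in pDC. Elsewhere it was well above background on 1 of 4 B arrays and 1 of 3 cDC2 arrays, and on no MP, MoDC or cDC1 array. All 3 pDC arrays were higher than every other array, the highest of which was cDC2 replicate 3 at -3.61. The same held for 3.28% of all genes. Only in pDC was CCR9 above background on all arrays, and the filter asks for this in at least 1 subset. It was thus tested through the subset where it is high, so its separation and its calls are not independent support. The measured CCR9 difference was 5.10 ± 0.99 (SE) from B to pDC (limma adjusted p = 0.00422) and 4.77 ± 1.06 (SE) from cDC2 to pDC (limma adjusted p = 0.00488). Both sizes rest on arrays at background, and with normexp they were 1.93 and 1.87. On the processed signal it was higher in pDC than in MP by at least 3.58 on the log2 scale (limma adjusted p = 0.00107) and at least 21.2-fold higher than in MoDC (limma adjusted p = 0.00066). With normexp these log2 differences were 1.74 and 2.18. CCR9 had the order of TCF4 within pDC, with replicate 2 lowest and replicate 3 highest. So did FLT3, CD14 and the T cell marker CD3E, while KLK1 and GNLY did not. The share of all genes with this order was not counted, so no link of TCF4 to pDC genes is drawn from it.

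KLK1, a tissue kallikrein, was -3.93, -2.70 and -1.92 in pDC. On the processed signal it was at least 8.6-fold higher in pDC than in cDC2 (limma adjusted p = 0.000174), and with normexp the log2 difference was 1.22. KLK1 was high in MoDC too, with -1.41, -2.26 and -3.32. RHOBTB2 was lower in pDC than in B by 1.34 ± 0.39 (SE; limma adjusted p = 0.0454), and pDC minus B was -0.54 with normexp. ATP1B1, a subunit of the sodium pump, was lower in pDC than in cDC2, with means of 1.43 and 3.13, and lower than in MoDC, with a mean of 2.93 (limma adjusted p = 0.0225).

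**Figure D4:**
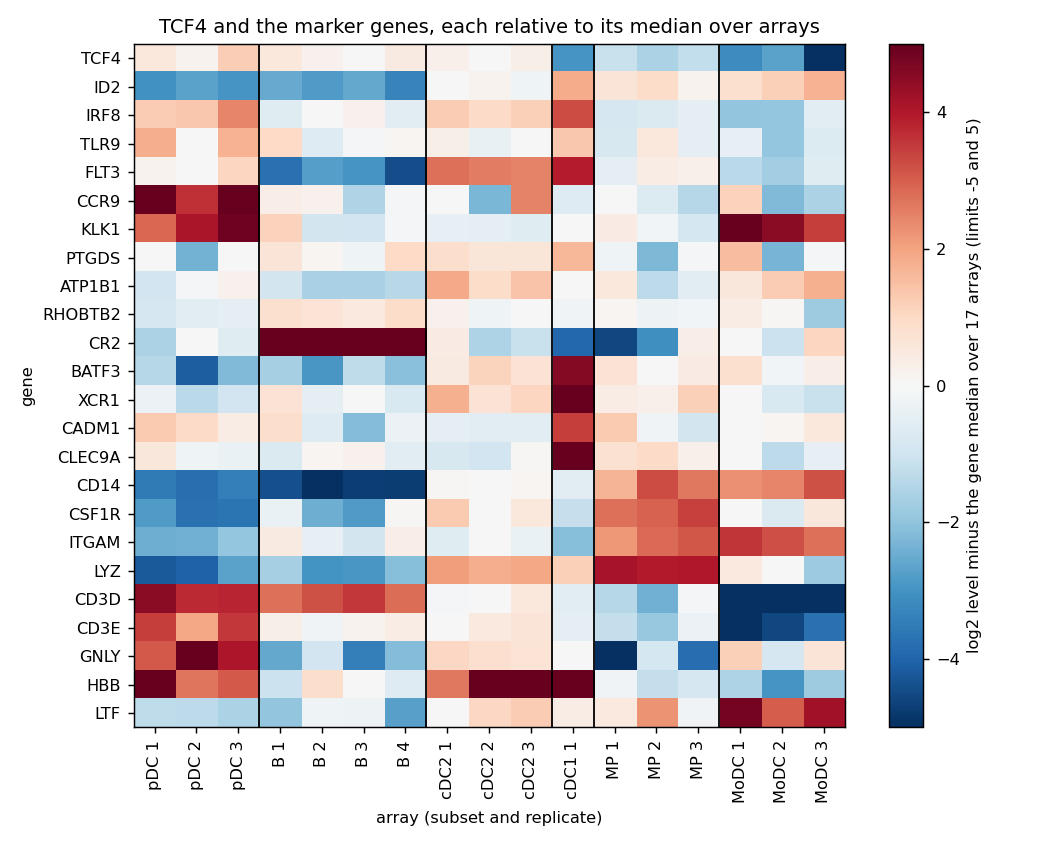
Levels of TCF4 and 23 marker genes (rows) on the 17 arrays (columns, by subset and replicate), each as log2 level minus the median of that gene over the arrays, with the colour scale ending at -5 and 5. TCF4 is above its median in pDC and on most B and cDC2 arrays, and low in cDC1, MP and MoDC. CCR9 is high in pDC, and CD3D and CD3E are high in pDC and low in MoDC.

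Markers of other cell types were set beside TCF4. Of the 13 T and NK cell markers listed, CD3D, CD3E, GNLY and CD28 are on the array, and CD28 was too dim to be tested. CD3D and CD3E are chains of the T cell receptor complex, and GNLY is granulysin of cytotoxic cells. The mean level of the 3 tested lay from 3.48 to 3.67 on the pDC arrays, from -0.08 to 0.49 in B and from 0.13 to 0.44 in cDC2. It was -0.53 on the cDC1 array, from -2.89 to -1.59 in MP and from -4.17 to -3.54 in MoDC, where CD3D was not above background on any array. No subset except pDC reached 0.5.

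CD3D was 3.70, 2.94 and 3.02 in pDC, and its B mean was 2.26. CD3E was 4.64, 3.12 and 4.74 in pDC, and its B mean was 1.37. In the pDC arrays all 3 tested markers were called higher than in MP (13.1% of all genes), MoDC (18.3%) and cDC2 (9.34%), and 2, CD3E and GNLY, were called higher than in B (4.41%). CD28, a costimulatory receptor of T cells, was well above background on 1 pDC array and 1 MP array. Over the 17 arrays the correlation with TCF4 was r = 0.85 for CD3D, 0.78 for CD3E, 0.10 for GNLY and 0.05 for CD28. The part of T or NK cells in the TCF4 level of the pDC arrays was not tested, and a larger share of cells cannot be told apart from more RNA per cell.

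Of the 14 B cell markers, CR2 is on the array by name. On the pDC arrays it was -3.16, -1.60 and -2.21, and in cDC2 -1.20, -3.15 and -2.69, against at least 4.20 in B. CR2 was thus 6.55 ± 0.88 (SE) lower in pDC than in B (limma adjusted p = 0.000283) and 6.57 ± 0.88 (SE) lower in cDC2 (limma adjusted p = 9.91e-05), while TCF4 was not called between these subsets. From gene set enrichment, the paper proposes that B cells likely contaminate the sheep pDC. It also proposes that pDC probably contaminate the sheep cDC2, to a likely limited extent. The part of such cells in the TCF4 levels was not tested. The mean level of the 4 tested macrophage and monocyte markers on the array lay from -3.71 to -3.15 in pDC, from 0.24 to 0.49 in cDC2 and from 2.47 to 3.07 in MP. All 4 were called lower in pDC than in MP, where 12.9% of all genes were called in that direction. In pDC, ITGAM and CSF1R, an integrin chain and the receptor of macrophage growth factor, were not well above background on any array. HBB, a globin of red cells, was well above background on 3 of 3 pDC arrays and on 1 of 4 B arrays, with a mean of -1.83 in pDC. The measured difference from B was 3.88 ± 0.77 (SE; limma adjusted p = 0.00474), a size that rests on B arrays at background and was 1.44 with normexp. It was also above background on all cDC2 arrays (mean -0.96) and on the cDC1 array (0.83), the other subsets sorted from blood. LTF, a granule protein of neutrophils, had a mean of -4.61 in pDC, -4.51 in B, -2.46 in cDC2 and -2.38 in MP. It was highest in MoDC, with a mean of 0.77.

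Of the 14 cDC markers, 8 are on the array, and 7 of these were tested (SIRPA was too dim). Of these, 4 were called lower in pDC than in cDC2 (10.9% of all genes), namely ID2, FLT3, BATF3 and XCR1. BATF3, a transcription factor required for cDC1, was 0.20, -2.46 and -0.58 in pDC, 2.10, 2.75 and 2.36 in cDC2 and 6.24 on the cDC1 array. CLEC9A, a receptor for dead cells on cDC1, was well above background on the cDC1 array alone, where TCF4 was at -2.41.

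Likeness to TCF4 was described by Pearson r over the 17 arrays, for the other 11310 genes tested. The arrays share subsets and slides, so these values carry no p. The median r was 0.11, and 35 genes had r over 0.9. The genes most like TCF4 carry no symbol in the files. The first, probe A_70_P055711, had r = 0.96, with means of -2.09 in pDC, -2.26 in B, -2.65 in cDC2, -4.01 in cDC1, -3.83 in MP and -5.52 in MoDC. The second, A_70_P054071, had r = 0.96. They were chosen for this value and were well above background on 1 and 2 of the 3 MoDC arrays. Without MoDC replicate 3 they ranked 3 and 7, 8 genes had r over 0.9, and 3 of these were among the first 35.

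Among the 277 genes with a symbol, 8 of the 10 most like TCF4 were CD3D (r = 0.85), FTO (0.85), CD247 (0.84), PYGM (0.82), RPSA (0.81), SLPI (0.78), CD3E (0.78) and EEF1D (0.78). CD3D, CD3E and CD247 encode T cell receptor signalling chains, and RPSA and EEF1D act in the ribosome or translation. Without MoDC replicate 3 their values spread over a wider range. CD3D had r = 0.85, CD3E 0.83, PYGM 0.77, SLPI 0.76, CD247 0.75, FTO 0.63, RPSA 0.47 and EEF1D 0.35.

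At the other end, LPL had r = -0.88, PRKACA -0.86, IGF1 -0.85, INHBA -0.85 and ALDH1A1 -0.85. Without MoDC replicate 3 these were -0.74 for LPL and PRKACA, -0.78 for IGF1, -0.81 for INHBA and -0.83 for ALDH1A1. LPL, a lipase, and IGF1, a growth factor, were above background on all 3 MoDC arrays, on 1 cDC2 array for LPL, and on no other array. INHBA, the activin A subunit, had a mean of 5.67 in MoDC and -2.42 in MP. ALDH1A1, which makes retinoic acid, was 4.34 in MoDC and 1.40 in MP. Of all genes the lowest r was that of probe BL_OCA_F000556 (r = -0.95), which was highest in MoDC (mean 3.88) and cDC1 (3.40) and lowest in B (2.01), and then A_70_P067731 (r = -0.93).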

How the data were processed

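Total RNA of sorted or cultured sheep cells was amplified, Cy3 labelled and hybridised to 1-colour Agilent arrays. The deposited scanner files hold gProcessedSignal, an intensity from which Agilent Feature Extraction had already subtracted background, with a flag per spot. The authors also deposited a table of log2 values for the same arrays, whose scale, centring and method are not given in the sources used here beyond limma in the submitters' processing notes. Its rows were matched to probes by name order (r with the scanner values of the same array 0.969 to 0.988, and 16 of 17 columns highest with their own array), and it served as an alternative.

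From each array of 15744 spots, 536 control spots and the spots flagged as outliers were left out, log2 signals were set to the 75th percentile of the array, and spots of a probe were averaged. The 11549 probes well above background in over 50% of spots on all arrays of at least 1 subset passed the filter and gave 11311 genes (1 probe per gene). Differences were fitted with limma 3.58.1 in R 4.3.3 as means of 6 subsets and adjusted by Benjamini-Hochberg within a pair. The fit was tested on simulated data. Other steps used Python 3.11.15. Symbols, held by 3.02% of probes, came from the files or from RefSeq accessions (ARS-UI_Ramb_v3.0, names only). The number of arrays limits precision. Nothing says that all samples of a subset came from separate animals, so p-values measure the spread between these samples.

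Named genes were TCF4, the listed markers, the study's human and mouse pDC fingerprints, and the 10 genes highest and 5 lowest in r with TCF4, with and without the limit to genes with a symbol. Of these, 2 genes and the probe sequence are not reported here. The members and lists were chosen with earlier results of these data known. Same-numbered arrays of B, pDC, MP and MoDC shared a slide, and their deviations correlated at r of 0.101 to 0.561 in all 18 pairs. Pairing by number cannot be told apart from the shared slide. The 12 pairs with cDC2 had r of -0.151 to 0.0914.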

Additional observations from a re-analysis of the deposited data

Results flagged for a closer look

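On the 4 B arrays, the gap of the farthest array to its nearest neighbour was set against the whole range for 51 genes named here. Chance alone marks about 1 in 20 such groups. TCF4 was not marked, with a ratio of 0.385. SLPI was marked at 0.881, since B replicate 2 was at -4.53 and the others lay between -3.78 and -3.68.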

How the results depend on the processing

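TCF4 stayed not called between pDC, B and cDC2, and stayed called in pDC, B and MP against MoDC, in all 26 alternatives run for each pair. pDC minus MP, not called at 1.94, was called with normexp (1.67, adjusted p = 0.00117), quantile normalization (2.00), the median as reference (1.83), the authors' table (1.85), the outlier spot kept (2.19) and MoDC replicate 3 at the lowest signal above background (1.94). It was also called without MoDC replicate 2 (adjusted p = 0.0412) or 3. B minus MP was called with normexp (1.33) and the authors' table (1.48), and cDC2 minus MP with normexp (1.20) and the authors' table (1.36). cDC2 minus MoDC was not called with slide as a block (4.18). With the replicate block, where same-numbered arrays form a block, no call changed: pDC minus B was 0.39 and pDC minus MP 1.94 (limma adjusted p = 0.0877). pDC against all other arrays kept exact p above 0.05 in all alternatives.

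cDC1 minus cDC2, -3.13, was -0.81 with normexp, -1.99 with normexp without 7 spots of high local background on the cDC1 array, -3.36 with quantile normalization and -2.91 with the authors' table. Of the 10 genes most like TCF4, 3 were shared with normexp, 5 with normexp without these spots, 6 with the authors' table, 1 with r over the 6 subset means and 1 with Spearman rho.

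Leaving out 1 array gave these ranges: pDC minus B 0.04 to 0.58, pDC minus MP 1.64 to 2.18, pDC minus MoDC 3.55 to 5.62, pDC minus cDC2 0.18 to 0.71, B minus MP 1.47 to 1.70, B minus MoDC 3.21 to 5.28, B minus cDC2 0.04 to 0.23, cDC2 minus MP 1.33 to 1.56, cDC2 minus MoDC 3.08 to 5.15, MP minus MoDC 1.62 to 3.68, pDC minus all others 1.48 to 2.15, cDC1 minus cDC2 -3.22 to -3.08, and 3 to 10 shared likeness genes (3 without MoDC replicate 3, 4 without cDC1, 6 without MoDC replicate 1). All 133 calls on TCF4 and the marker genes kept their direction under 4 other scalings. Of these calls, 60 were smaller by over 1.5 times under at least 1 of the scalings. In 54 cases the smallest value came with normexp without the spots of high local background. TCF4 is not above background on every array, so the filter that asks for this gave no value. normexp used median signals, since slide 1 holds no mean signals, and this, leaving out the spots of high local background and the floor for MoDC replicate 3 were chosen after seeing the data.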
